A study of Gossypium hirsutum with 3 samples.

Results

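Out of 11143 genes on the array, 10 listed under pyruvate oxidation, respiration and mitochondrial protein import were followed in young cotton fiber RNA. They comprise 3 genes described as subunits of the pyruvate dehydrogenase complex (TMIRS_124_F12.F, Contig10276 and Contig13652), the isocitrate dehydrogenase gene Contig311, 3 genes described as parts of the electron transport chain (Contig16115, TMIRS_046_E11.F and Contig9549) and 3 genes of the mitochondrial import pathway (TMIRS_064_G08.F, Contig1634 and Contig15430). Contigs are sequences assembled from several cDNA reads, and singletons, named here by TMIRS codes, are single reads. The genes were picked by their descriptions from a list that the study drew up on ratios of these arrays together with arrays of older fiber, so the ratios below are measures that chose the genes. They are given as a description, without a test. Of the 10, 9 were higher and 1 was lower in the RNA coded SP2, with a median log2 ratio of 0.95 over the RNA coded SP1, beside a median of 0.04 for the 11081 genes tested. The 8 with a clear match to a named protein were all higher, with a median of 1.10. The lower gene, Contig9549, had a match too weak to name a gene.

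The samples came from field grown Gossypium hirsutum (upland cotton, cultivars DES119 and ST4793R by the study's methods) at 1 dpa, that is 1 day post anthesis, the day after the flower opened. Fiber initials, the ovule epidermal cells that had begun to protrude, were shaken off frozen ovules of many pooled bolls with glass beads. They were set against whole ovules, which still carry their initials, so the ovule RNA holds some fiber RNA as well. Each of the 3 arrays received the RNA of both tissues, one labeled with Cy3 (green) and the other with Cy5 (red), and the labels name no treatment or mutation.

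The deposited records do not settle which RNA is fiber. Codes in the files pair green SP2A with red SP1A (array 1), green SP1E with red SP2A (array 2) and green SP2C with red SP1F (array 3). In the labels, the green dye marks fiber for arrays 1 and 2, and the red dye marks it for array 3. By the label of array 1 the SP2 RNA is fiber, whereas by the labels of arrays 2 and 3 the SP1 RNA is fiber. The red over green ratios of all genes correlated at -0.58 between arrays 1 and 2, 0.522 between arrays 1 and 3 and -0.81 between arrays 2 and 3, which is the pattern of the codes and not that of the labels. All ratios are therefore SP2 over SP1. Taking array 1's label as right makes this fiber over ovules, while taking those of arrays 2 and 3 as right turns every direction round. The 5 young fiber genes described below, a part of those on the array, all had positive mean SP2 over SP1 ratios, though not on every array. No RNA was assigned to a tissue from measured values. The code SP2A stands on both array 1 and array 2, so it is not certain that the 3 arrays hold 3 separate harvests, and n = 3 counts arrays, whose spread may be partly technical.

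The pyruvate dehydrogenase complex joins the end of glycolysis to the pathways that use acetyl-CoA. Its E1 enzyme removes carbon dioxide from pyruvate and its E2 enzyme, dihydrolipoamide acetyltransferase, passes the acetyl group to coenzyme A. Plants hold such a complex in mitochondria, where it feeds the tricarboxylic acid cycle, and another in plastids, where it feeds fatty acid synthesis. The descriptions of these cotton genes do not say to which of them a gene belongs. The cycle hands electrons to a chain of membrane complexes that starts with NADH dehydrogenase and ends with cytochrome c oxidase. Most mitochondrial proteins are made in the cytosol, passed through the inner membrane by TIM complexes and trimmed by a processing peptidase. A cotton fiber is a single cell that elongates very fast and builds membrane and wall as it does so.

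Across the 3 arrays, median signals of all gene spots were 182 to 249 in green and 131 to 311 in red, and 93.6 to 95.3% of spots in green and 86.5 to 94.6% in red were above background. Of 5 genes known from young fiber, all had a positive mean SP2 over SP1 ratio and 2 were called changed at an adjusted p below 0.05 in the fit across all genes (GhFDH, a FIDDLEHEAD-like gene, at 1.17, and the transcription factor gene MYB109 at 1.29). Their summed normalized signal was 30200 to 35900 in SP2 RNA and 17000 to 26400 in SP1 RNA. None of the 5 was absent, but GhACY had a log2 ratio of -0.73 on array 1 against 1.84 and 1.78 on arrays 2 and 3. Histones H4 (Contig15160, -2.26) and H2A (Contig4036, -2.28), made in dividing cells, had a summed signal of 5310 to 6210 in SP2 RNA and 26700 to 29800 in SP1 RNA. In their mean ratios these 5 young fiber genes had the sign of 9 of the 10 genes described below, and the histones had that of the other 1. The part of the cells behind these markers in those ratios was not tested. In such bulk RNA, fewer cells of a type and less RNA per cell cannot be told apart.

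All 10 genes had 4 probes, and their 40 spots per array were above background in both RNAs on every array, with none saturated. In green this rests on the deposited flag. On array 1, where green held SP2 RNA, the negative control spots in green had an SD of 102. SP2 signals of 147 (Contig13652), 172 (Contig1634) and 192 (TMIRS_124_F12.F), from 1 probe each, were not far above it. Signals below are the median over the 4 spots of a gene after subtraction of the local background, before dye normalization. They are given by array, and a level is not set against that of another gene because probes differ in how well they bind. In these signals 9 genes had all 3 SP2 values above all 3 SP1 values and 1 gene had them all below, where 6.42% and 2.41% of all genes did so. Log2 ratios follow loess normalization, which removes the part of a dye difference that depends on brightness.

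The 3 pyruvate dehydrogenase genes were all higher in SP2 RNA. TMIRS_124_F12.F, described as dihydrolipoamide acetyltransferase (E2), had signals of 4110, 5720 and 3910 in SP2 RNA on arrays 1, 2 and 3, against 1900, 963 and 821 in SP1 RNA. The gap was narrowest on array 1. Its log2 ratios were 1.02, 1.74 and 1.79, with a mean of 1.51 ± 0.43 (SD, n = 3 arrays), a 2.86-fold difference. It stood 24th from the highest among 11081 genes and was the highest of the 10.

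A second E2 sequence, Contig10276, described as dihydrolipoamide S-acetyltransferase, had signals of 3490, 5050 and 3620 in SP2 RNA and 2640, 1430 and 944 in SP1 RNA. Its log2 ratios of 0.65, 0.98 and 1.34 averaged 0.99 ± 0.34 (SD, n = 3), or 1.99-fold. The ratio of TMIRS_124_F12.F exceeded that of Contig10276 by 0.37, 0.75 and 0.45 on the 3 arrays, 0.52 ± 0.20 on average, so their order was the same on every array.

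Contig13652, described as the beta subunit of pyruvate dehydrogenase E1, had signals of 6590, 9500 and 6730 in SP2 RNA against 3190, 1480 and 1630 in SP1 RNA. The log2 ratios were 0.67, 0.97 and 0.86, a mean of 0.83 ± 0.15 (SD, n = 3) and a 1.78-fold difference. The E1 beta and Contig10276 ratios differed by 0.16 ± 0.27, less than the spread between arrays, with Contig10276 the lower of them on array 1. TMIRS_124_F12.F lay above Contig13652 on every array, by 0.68 ± 0.30.

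The mean of Contig13652 covers a wide split between its probes. Probes 3 and 4 averaged 1.45 and 1.34 and gave SP2 signals between 12700 and 20600. Probes 1 and 2 averaged 0.14 and 0.40, with SP2 signals of only 147 to 532, and held the 2 of its 12 probe values that were not positive. The SD over its 4 probe means was 0.66, larger than in 97.6% of 8602 genes with 4 probes, where the median was 0.14. Whether all 4 probes read the same transcript was not tested. The E2 probes stood closer together, with an SD of 0.12 for TMIRS_124_F12.F and 0.11 for Contig10276. Each of the 4 probes of TMIRS_124_F12.F had its lowest log2 ratio on array 1. Probe 1 was far the lowest there, with 192 in SP2 RNA, 206 in SP1 RNA and a log2 ratio of 0.04, while its other probes gave 1.31 to 1.38.

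Contig311, described as the alpha subunit of NAD-dependent isocitrate dehydrogenase, stood alone among the 10 as a gene of the tricarboxylic acid cycle. This enzyme releases carbon dioxide from isocitrate and makes NADH for the electron transport chain. Its signals were 5940, 8770 and 6650 in SP2 RNA against 3420, 1690 and 1370 in SP1 RNA, and again the values of array 1 were nearest to each other. The log2 ratios were 0.96, 1.40 and 1.64, with a mean of 1.33 ± 0.34 (SD, n = 3), or 2.52-fold. All 12 of its probe values were positive, between 0.68 and 2.03.

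**Figure D1:**
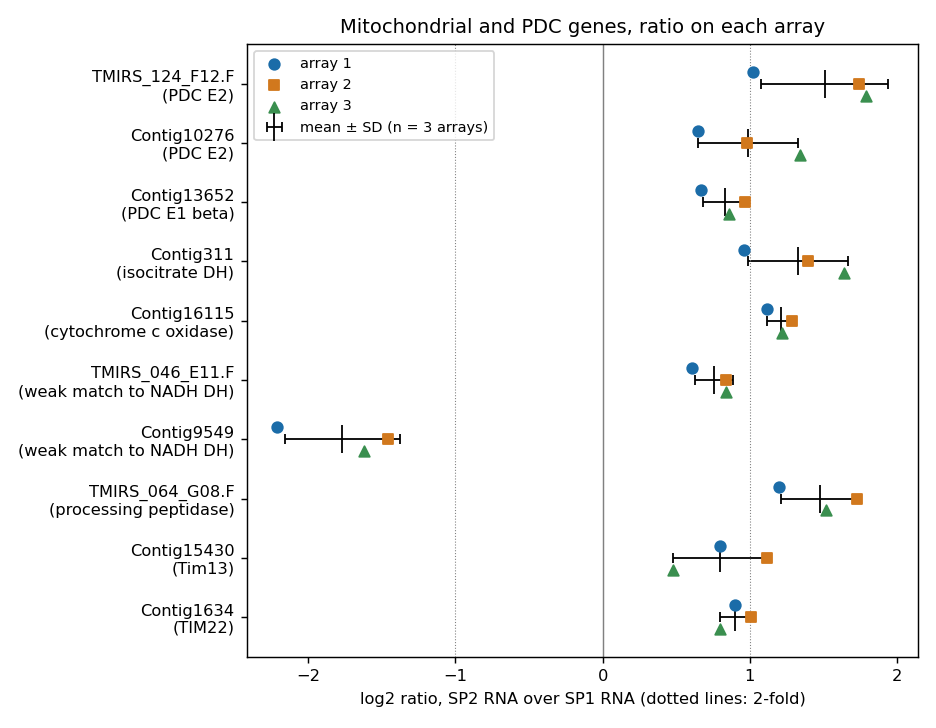
Log2 ratio of SP2 RNA over SP1 RNA on each of the 3 arrays for the 10 genes (PDC, pyruvate dehydrogenase complex; DH, dehydrogenase), with the mean and its SD over arrays and dotted lines at 2-fold. To the right of 0 on all 3 arrays lie 9 genes, with means of 0.76 to 1.51, and Contig9549 lies to the left on all 3 with a mean of -1.77.

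The 3 genes described as parts of the electron transport chain did not move together. Only Contig16115 among them had a clear match to a named protein, so this is no result about the chain itself. Contig16115, a subunit of cytochrome c oxidase, the complex that passes electrons to oxygen, had signals of 5720, 7000 and 6800 in SP2 RNA and 2820, 1530 and 2010 in SP1 RNA. Its log2 ratios of 1.12, 1.29 and 1.22 were the most even over arrays of the 10 genes, at 1.21 ± 0.09 (SD, n = 3) and 2.31-fold. Its probe means ranged more widely, between 0.81 and 1.51.

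TMIRS_046_E11.F and Contig9549 carry the same description, subunit 5 of NADH dehydrogenase, the entry complex of the chain. The matches behind it were to a beetle and to a fish protein and were too weak to name a gene, so the description is kept here only as the name under which they were listed. As background, subunit 5 is encoded in the mitochondrial genome of plants. TMIRS_046_E11.F had signals of 645, 906 and 788 in SP2 RNA and 463, 335 and 311 in SP1 RNA. Its log2 ratios of 0.61, 0.84 and 0.84 averaged 0.76 ± 0.13 (SD, n = 3), or 1.70-fold, the smallest difference of the 10.

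Contig9549 was the 1 gene with less signal in SP2 RNA, 1000, 1150 and 512, against 5840, 2160 and 1330 in SP1 RNA. Its log2 ratios were -2.21, -1.46 and -1.62, with a mean of -1.77 ± 0.39 (SD, n = 3), a 3.40-fold lower value in SP2 RNA. It was 133rd from the lowest of 11081 genes. All 12 probe values were negative, between -2.50 and -0.37, and the difference was largest on array 1. Its probe means ranged from -2.08 to -1.16, and their SD of 0.43 was larger than in 91.5% of genes with 4 probes. Before normalization, probe 1 on array 2 had the higher signal in SP2 RNA, 826 against 725 in SP1 RNA. The ratio of TMIRS_046_E11.F lay above that of Contig9549 by 2.53 ± 0.27, and by at least 2.31 on each array, so genes of the same listed name stood far apart.

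**Figure D2:**
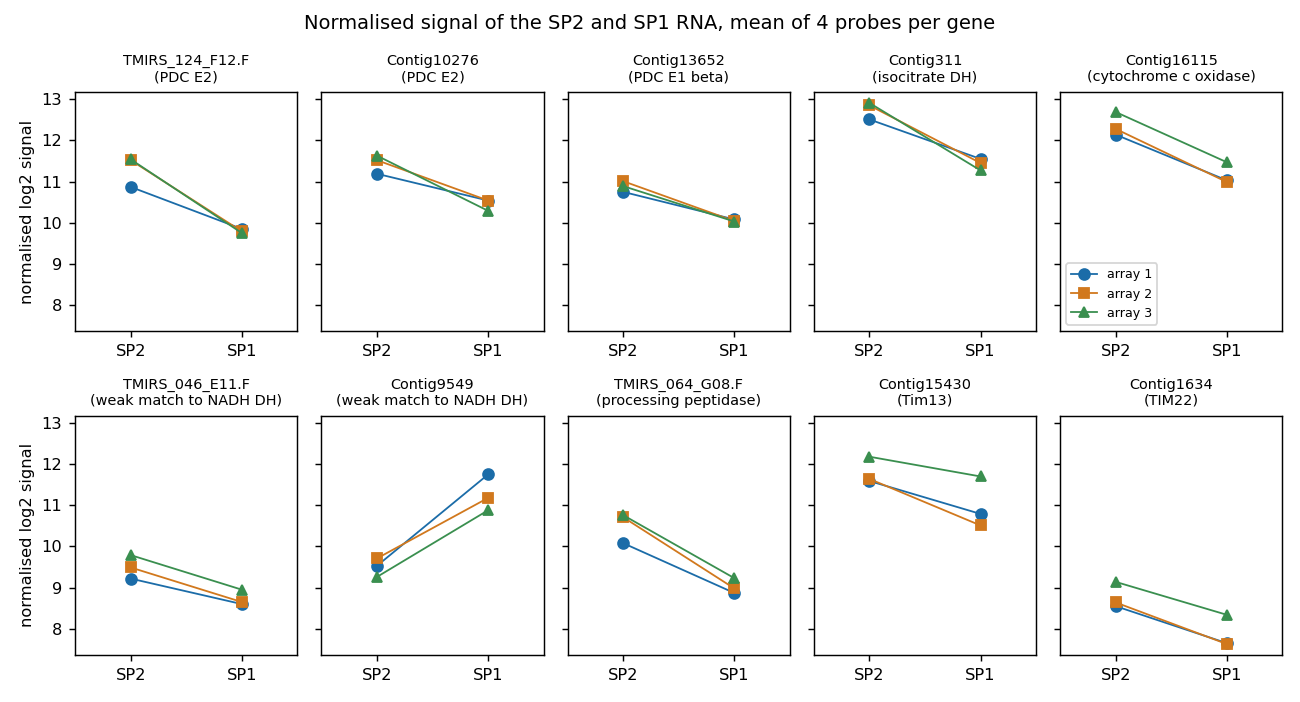
Normalized log2 signal of each gene in SP2 RNA and in SP1 RNA, as the mean of 4 probes, with a line joining both RNAs of an array (PDC, pyruvate dehydrogenase complex; DH, dehydrogenase). The lines fall toward SP1 RNA for 9 genes and climb toward it for Contig9549, which had 9.26 to 9.71 in SP2 RNA and 10.88 to 11.75 in SP1 RNA.

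The 3 import genes were all higher in SP2 RNA. TMIRS_064_G08.F, described as a mitochondrial processing peptidase, the enzyme that cuts the targeting signal from imported proteins, had signals of 1310, 2250 and 1580 in SP2 RNA and 679, 432 and 392 in SP1 RNA. The log2 ratios were 1.20, 1.73 and 1.52, with a mean of 1.48 ± 0.27 (SD, n = 3), or 2.80-fold. Its 4 probes gave nearly the same mean, 1.44 to 1.55, and the SD of 0.05 over probes was smaller than in most genes with 4 probes (5.96% had a smaller one).

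Contig1634, described as TIM22, the channel that inserts carrier proteins into the inner membrane, had signals of 474, 469 and 442 in SP2 RNA and 256, 156 and 172 in SP1 RNA. Its log2 ratios of 0.90, 1.01 and 0.80 averaged 0.90 ± 0.10 (SD, n = 3), or 1.87-fold. The arrays were close to each other, but its probe means ranged from 0.44 to 1.23.

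Contig15430, described as Tim13, a small chaperone of the space between the mitochondrial membranes, had signals of 3720, 4540 and 4720 in SP2 RNA against 2600, 1310 and 2560 in SP1 RNA. The log2 ratios of 0.80, 1.12 and 0.48 averaged 0.80 ± 0.32 (SD, n = 3), or 1.74-fold, and array 3 gave the lowest of them. Probe 1 was the lowest of its probes, at 0.32 on average, and the other 3 lay between 0.85 and 1.04. The processing peptidase exceeded TIM22 by 0.58 ± 0.24 and Tim13 by 0.68 ± 0.33, with 1 sign on all arrays. TIM22 and Tim13 differed by 0.10 ± 0.22, within the spread between arrays.

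**Figure D3:**
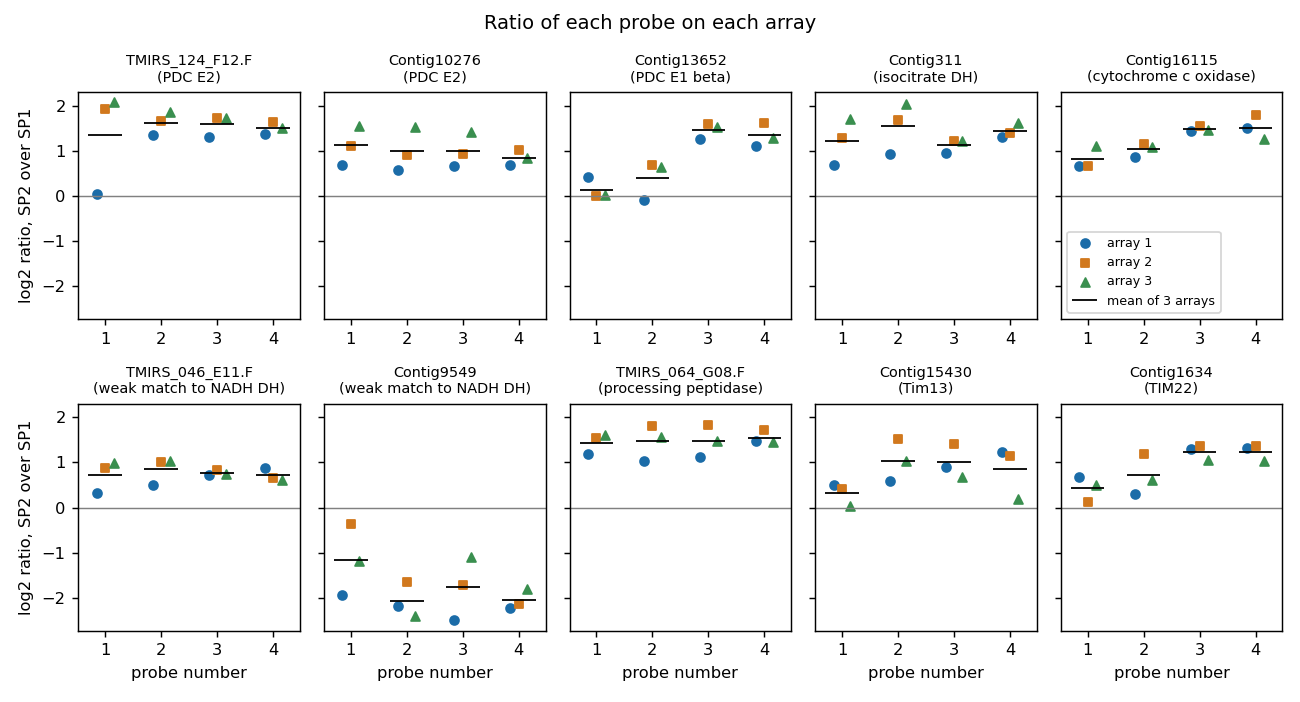
Log2 ratio of SP2 RNA over SP1 RNA for each of the 4 probes of the 10 genes on each array, with bars at the mean of 3 arrays (PDC, pyruvate dehydrogenase complex; DH, dehydrogenase). The probes of TMIRS_064_G08.F sit within 1.44 to 1.55 on average, whereas those of Contig13652 split into a pair near 0.14 and 0.40 and a pair near 1.45 and 1.34.

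Ordered by mean ratio, the genes ran from TMIRS_124_F12.F (1.51) through TMIRS_064_G08.F (1.48), Contig311 (1.33), Contig16115 (1.21), Contig10276 (0.99), Contig1634 (0.90), Contig13652 (0.83) and Contig15430 (0.80) to TMIRS_046_E11.F (0.76) and, far below, Contig9549 (-1.77). Each of the 8 pairs of neighbors among the 9 higher genes differed by less than the SD of their difference over arrays, so the order within that run is loose. The step down to Contig9549 was the only one between neighbors larger than its SD. At least 1 gene of each role, pyruvate dehydrogenase, isocitrate dehydrogenase, electron transport and import, stood among the 4 highest.

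The arrays did not weigh equally. The medians of the 10 genes were 0.85, 1.07 and 1.04 on arrays 1, 2 and 3. The lowest ratio of a gene fell on array 1 for 8 genes and on array 3 for 2, and the highest fell on array 2 for 6 and on array 3 for 4. For Contig9549, counted among the 8, the -2.21 on array 1 was its largest difference between both RNAs. Array 1 also had the noisiest negative control spots in green, with an SD of 102 against 5.85 and 5.32 on arrays 2 and 3, and its part in the lower ratios was not tested.

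In the fit of the log2 ratios of all genes against 0 (limma, p adjusted by Benjamini-Hochberg, called at 0.05), 12.3% of 11081 genes were called changed, 3.95% higher and 8.31% lower in SP2 RNA. All 10 genes were called, 9 higher and 1 lower, and nothing is read from this because the same contrast chose them. With centring by the median of each array in place of loess, 3 of the 10 were called, Contig16115, TMIRS_064_G08.F and Contig1634. None of the pyruvate dehydrogenase genes was among them. With the ratios as deposited 4 were called, TMIRS_124_F12.F, Contig311, Contig16115 and TMIRS_064_G08.F. Contig9549, the lower gene, was called in neither setting. By the threshold of the study's methods, at least 2 fold at an unadjusted p of 0.05, 6.46% of all genes were changed, 1.73% higher and 4.73% lower. At that threshold 4 of the 10 were higher and 1 was lower. Contig16115 at 2.31-fold was the nearest to 2 fold from above and Contig10276 at 1.99-fold the nearest from below. The sign was positive on all 3 arrays for 20.9% of all genes and negative on all 3 for 23.1%, beside 9 and 1 of the 10 genes.

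A further 18 genes of the study's list have related descriptions. That list was chosen in part on these arrays, so their directions are no independent evidence. Of the 18, 11 were called higher and 3 lower in SP2 RNA and 4 were not called, beside the 3.95% and 8.31% of all genes, and their median ratio was 1.00. Among the 14 with a clear match to a named protein, 10 were called higher and 2 lower.

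The supply of pyruvate and the transfer of its acetyl group took in 5 of the related genes, of which 4 were higher. The 3 pyruvate kinase genes, whose enzyme makes pyruvate in the last step of glycolysis, had mean ratios of 1.32 (Contig97), 1.06 (Contig5604) and 1.05 (TMIRS_118_C01.F). Contig5604 varied the most over arrays, with 0.35, 1.12 and 1.71 on the 3 arrays. The probes of Contig97 lay far apart, with means from 0.21 to 2.03. Another sequence described as dihydrolipoamide acetyltransferase, TMIRS_030_C06.F, gave 0.72, 0.91 and 1.20, a mean of 0.94 ± 0.24 (SD, n = 3). It lay within 0.05 ± 0.11 of Contig10276, whereas TMIRS_124_F12.F exceeded it by 0.57 ± 0.27. Contig14996, described as phosphofructokinase, an early control step of glycolysis, went the other way with -1.39, -0.92 and -0.43. Its signals were low, at 109, 86.3 and 67.1 in SP2 RNA and 298, 169 and 68.5 in SP1 RNA, and 3, 4 and 2 of its 4 spots were above background in SP2 RNA.

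Respiration and the carriers of the inner membrane took in 9 related genes, of which 5 were higher, 2 were lower and 2 were not called. A singleton described as the adenine nucleotide translocator, which trades ATP for ADP across the membrane, gave 1.06, 1.25 and 1.37, and a singleton described as an uncoupling protein gave 1.07, 1.46 and 1.22. The translocator was read by 1 probe. Contig16771, described as NADH-ubiquinone oxidoreductase-related, gave 0.84, 1.24 and 1.47, a mean of 1.18 ± 0.32 (SD, n = 3) from 1 probe in 3 spots. Its mean was nearer to that of TMIRS_046_E11.F, at 0.76, than to that of Contig9549, at -1.77. Likeness of ratios does not tell what either of those weakly matched sequences encodes. Contig2992, a weak match to malate dehydrogenase, averaged 1.10 and Contig2726, described as the mitochondrial protein Fmp16, averaged 0.97.

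The lower ones of these were Contig3288, described as a mitochondrial substrate carrier, with -1.61, -1.30 and -0.96, and Contig15067, a weak match to alternative oxidase, the plant enzyme that passes electrons to oxygen without cytochrome c oxidase, with a mean of -0.93. The signals of Contig3288 were low, at 164, 142 and 95.6 in SP2 RNA and 436, 271 and 126 in SP1 RNA. Its probe means ranged from -2.18 to -0.86. Genes described as carriers were thus found on both sides of 0. Contig2667, a weak match to NADH dehydrogenase subunit 7, averaged -0.19, and Contig61, a hypothetical mitochondrial protein with a weak match, averaged 0.36 with -0.25 on array 1. Neither was called.

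The last 4 related genes belong to import, folding and translation. TIM9 (Contig16175), like Tim13 a small chaperone between the membranes, gave 0.66, 1.35 and 1.62, a mean of 1.21 ± 0.50 (SD, n = 3), and prohibitin (Contig3145), a scaffold protein of the inner membrane, gave 1.30, 0.89 and 0.91. Both were called higher. Chaperonin-60 (Contig10074), which folds imported proteins, averaged 0.44 ± 0.24 and was not called, with an adjusted p of 0.127. The mitochondrial ribosomal protein gene TMIRS_103_E11.F gave 0.59, 0.11 and -0.36 and was not called, with an adjusted p of 0.816 (limma). Prohibitin and TMIRS_103_E11.F were each read by 1 probe.

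**Figure D4:**
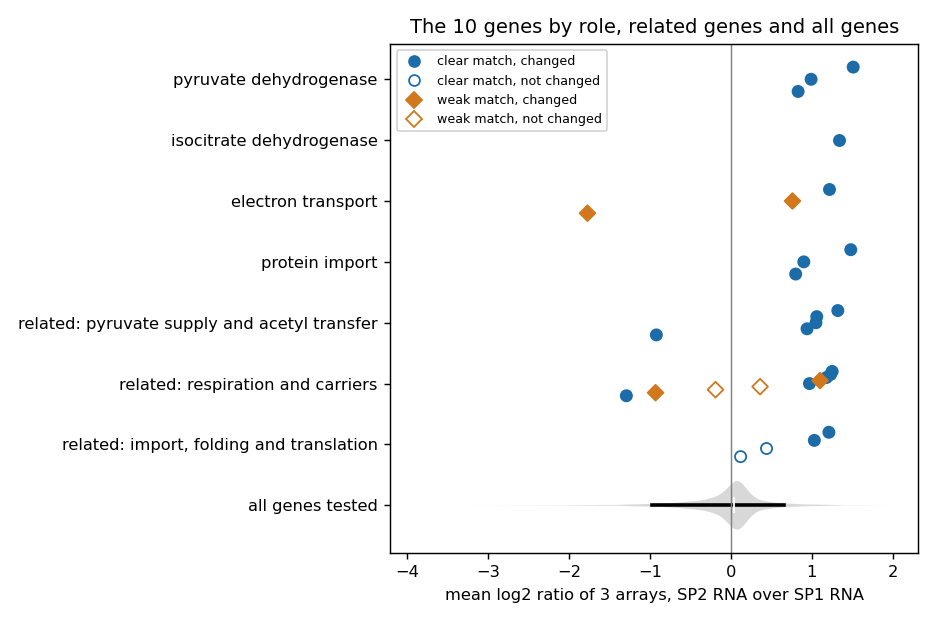
Mean log2 ratio of SP2 RNA over SP1 RNA over 3 arrays for the 10 genes by role, for 18 related genes by role, and for all 11081 genes tested (grey shape, with the black bar from the 5th to the 95th percentile and the white tick at the median). Beyond the 95th percentile of all genes, 0.65, lie 9 of the 10 genes, and Contig9549 lies below the 5th, -0.98, with filled symbols for genes called changed and diamonds for weak matches.

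Among 1026 other genes of the study's list, the genes whose ratios over the 3 arrays lay closest to those of TMIRS_124_F12.F, by Euclidean distance on the log2 scale, were Contig18039, a predicted GPI-anchored protein (distance 0.10), TMIRS_168_G01.F, a myosin heavy chain (0.21), and Contig2814, a putative villin, which bundles actin filaments (0.32). Their mean ratios were 1.48, 1.43 and 1.47. Closest to Contig9549 were Contig17121, an expressed protein of unknown role, and Contig1582, a glucosyltransferase, each at a distance of 0.27, and Contig15592, which had no match, at 0.30. Their means were -1.62, -1.70 and -1.75. Likeness over 3 arrays is a coarse measure.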

How the data were processed

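Polyribosomal RNA (RNA bound to ribosomes) of fiber initials and of whole ovules was hybridized by the study to 3 dual color Agilent arrays. The labels name it total RNA, and the difference was not resolved here. The deposited scanner files hold mean pixel intensity per spot and local background in green and red, from Agilent Feature Extraction, with no dye normalization. A deposited flag of 0 or 1, a value of another kind, marks green spots well above background, and red spots were called so when 2.6 robust SD above the median negative control. The deposited series table holds the authors' log2 of background-subtracted red over green per spot, neither centred nor turned for dye swaps, and was matched at 42034 of 42034 spots within 1e-08.

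Background was corrected by normexp with an offset of 50 and ratios were normalized by loess within arrays (limma 3.58.1 in R 4.3.3), and each array was turned by its RNA codes. A probe took the mean of its spots and a gene the mean of its probes. Probes above background in 1 or both dyes on 2 or more arrays were used (38713 of 40372), which left 11081 of 11143 genes. The 3 log2 ratios of a gene were tested against 0 with lmFit and eBayes, in place of the study's analysis of variance over 6 arrays, of which 3 are used here. Because dyes were deposited unbalanced, the normalization sets where a gene counts as unchanged. Spots at 65000 or more counted as saturated. Normalized signals per channel also had Aquantile scaling between arrays. On simulated data with 200 changed genes among 11081, the fit recovered 36% of genes changed by 1 and 87% of those changed by 2 on the log2 scale, with 3.15% of calls false.

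The 10 genes and the related list were chosen with earlier results of these data known. All 10 were named, all related genes were counted and described, and for the highest and the lowest of the 10 the 3 nearest genes by Euclidean distance were named. Array gene names were used as given, since 0 of 11143 were found among RefSeq names. Probe sequences were not used here. Alternatives were the deposited ratios, median centring, plain background subtraction, filters on dim probes, medians of probes, turning arrays by the labels, averaging arrays 1 and 2, an unmoderated test, the study's threshold and each array left out.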

Additional observations from a re-analysis of the deposited data

How the results depend on the processing

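The 9 genes stayed higher and Contig9549 stayed lower in SP2 RNA under every alternative except turning the arrays by the labels. Turned by the labels, the mean ratios were -0.84 for TMIRS_124_F12.F, -0.56 for Contig10276, -0.39 for Contig13652, -0.69 for Contig311, -0.47 for Contig16115, -0.36 for TMIRS_046_E11.F, 0.29 for Contig9549, -0.68 for TMIRS_064_G08.F, -0.27 for Contig15430 and -0.30 for Contig1634, with a median of -0.43, and by construction arrays 2 and 3 then oppose array 1. That setting called 0 genes, 0 of the 10 and 0 of the 18 related genes (limma), with 538, 0 and 1 at an unadjusted p under 0.05. The unmoderated one-sample test called 2 genes, 0 of the 10 and 0 of the 18, with 1712, 9 and 11 at an unadjusted p under 0.05. With the deposited ratios, whose median over all genes was 0.25, 246 genes, 4 of the 10 and 4 of the 18 were called, and the median of the 10 was 1.31. With median centring, 329 genes, 3 of the 10 and 4 of the 18 were called, and the median was 1.12. Averaging arrays 1 and 2 gave 2253 calls over all genes, and the study's threshold gave 716 with 5 of the 10. The causes of these shifts were not tested. Leaving out 1 array in turn gave 994 to 1999 calls over all genes, 7 to 9 of the 10, 13 of the 18, and a median of 0.92 to 1.04. Contig15430 was not called without array 1, Contig13652, TMIRS_046_E11.F and Contig15430 were not called without array 2, and TMIRS_046_E11.F was not called without array 3. Without array 1 the higher calls numbered 1121 and the lower 878. At 2 fold or more, 4 of the 9 higher genes stood after loess, 7 after median centring and 9 in the deposited ratios. The ratio within an array already pairs both RNAs, so no further block was fitted. In the simulation, where 200 of 11081 genes were changed, most genes changed by 1 on the log2 scale were missed. In the data 12.3% of genes were called, so that rate need not hold there. The simulated errors were independent between arrays and centred on 0, whereas arrays 1 and 2 share the code SP2A. The 3.15% of false calls in the simulation therefore need not hold in the data either.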

Other observations

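The probes of a gene carry numbers in the files whose meaning is not stated in the sources used here. With each gene's ratio turned to its own direction, the medians over the 10 genes were 0.96, 1.04, 1.34 and 1.39 for probes 1, 2, 3 and 4, and in 7 of the 10 the mean of probes 3 and 4 exceeded that of probes 1 and 2. The same held for 802 of 988 other called genes with 4 probes (81.2%), with medians of 0.73, 0.91, 1.14 and 1.23 and a median difference of 0.33 between both pairs. It was seen among genes called higher (82.8%) and lower (80.4%) in SP2 RNA, so the split between the probes of Contig13652 has the direction of most called genes and exceeds their median difference.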
